A study of Mus musculus with 9 samples.

Results

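Histone chaperones are the proteins that hold histones outside the nucleosome and hand them on to DNA. The 10 transcripts described here encode the general and replication-coupled chaperones: *Chaf1a* and *Chaf1b* (subunits of chromatin assembly factor 1, CAF-1), *Asf1b* and *Nasp* (carriers of H3-H4), *Supt16* and *Ssrp1* (the FACT complex), *Supt6*, *Npm1*, *Nap1l1* and *Anp32e*. They were picked by name as known chaperones, with earlier results of these data known, and are 10 of the 55335 gene entries in each library. RNA was measured by Smart-Seq2 in pools of 8-cell embryos of ICR mice, obtained by in vitro fertilization and injected with siRNA as zygotes. A nontargeting siRNA was given in the control group. In MFN1-KD the siRNA targeted *Mfn1*, which encodes a GTPase of mitochondrial fusion, and in H3.3-KD a mixture targeted *H3f3a* and *H3f3b*, the 2 genes of histone H3.3. Each group had 3 libraries, and the number of embryos in each is uncertain, given as 5 to 10 in the labels and as 10 in the methods for RNA. Whether the 3 pools came from separate cultures is not given in the sources used here, so p-values measure the spread between pools.

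New nucleosomes behind a replication fork are built mainly by CAF-1, which takes H3.1-H4 from ASF1 and is tied to the fork by PCNA, while NASP keeps a soluble store of H3-H4. FACT and SPT6 take nucleosomes apart and put them back as RNA polymerase II passes, NAP1L1 and NPM1 bind H2A-H2B and other histones, and ANP32E removes the variant H2A.Z. H3.3, in contrast, is deposited independently of replication, chiefly by HIRA and by DAXX with ATRX, and cleavage embryos start from maternal stores of many of these proteins.

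Levels are in FPKM, fragments per kilobase of transcript scaled to the size of the library, so that different genes are compared per length. Fold changes are on the log2(FPKM + 1) scale and come from 1 limma model over all 9 libraries. The model covered 13011 genes that averaged 1 FPKM or more, and all 10 chaperone transcripts were among them. A transcript was called changed at a Benjamini-Hochberg adjusted p under 0.05 over those genes. Sequencing depth is unknown, and in a pool of embryos fewer cells of a type and less RNA per cell cannot be told apart.

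The siRNA targets followed the labels. *Mfn1* was 9.54, 4.40 and 1.15 FPKM in MFN1-KD against 51.57, 22.55 and 23.77 in control (log2 fold change -2.66, SE 0.58, limma adjusted p = 0.0431). In H3.3-KD *H3f3a* averaged 149.2 ± 28.3 FPKM (SD, n = 3) against 1932 ± 293, and *H3f3b* averaged 246.3 ± 70.3 against 2988 ± 154. Control libraries had 21643 to 22507 genes above 0, H3.3-KD libraries 23655 to 24820 and MFN1-KD libraries 15577 to 20842, the lowest being MFN1-KD replicate 3. All 8 markers of cleavage embryos were above 0 in each group, with summed FPKM of 10802 to 14013 in control, 16858 to 20512 in MFN1-KD and 6568 to 8408 in H3.3-KD. *Dppa3* gave nearly all of these sums (10642 to 13913, 16697 to 20351 and 6244 to 7699 FPKM), whereas *Pou5f1* (5.10 to 8.90 FPKM in control and 63.06 to 392.19 in H3.3-KD), *Tfap2c*, *Klf5* and *Tead4* were higher in every H3.3-KD library than in every control library. In H3.3-KD *Dppa3* was lower than in every control library, and *Cdh1*, *Gata3* and *Krt8* overlapped control. In MFN1-KD *Pou5f1* (0.30 to 3.68 FPKM) was below every control library, *Dppa3*, *Tfap2c* and *Klf5* were above, and the others overlapped. The 6 oocyte markers summed to between 24.4 and 48.3 FPKM in every library. The 10 cumulus and granulosa cell markers summed to 16.1 to 29.8 FPKM in control, 10.2 to 19.9 in MFN1-KD and 38.3 to 75.9 in H3.3-KD. Of them, 3, 4 and 8 were above 0 in at least 1 library of the group. *Amhr2* gave most of that sum, the other 9 markers added at most 0.02, 0.76 and 9.77 FPKM, and *Fshr* and *Inhba* were at 0 in all libraries. The 9.77 came from H3.3-KD replicate 3, where *Dcn* was 8.39 FPKM, and replicates 1 and 2 had 0.29 each. The part of these differences in the chaperone values was not tested. Over all genes the log2 fold change had a median of -0.08 for MFN1-KD and 0.26 for H3.3-KD. Median-ratio scaling brought the H3.3-KD median to 0.00, and the called H3.3-KD values of the 10 chaperone transcripts are also given relative to 0.26.

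The promoters of 4 transcripts are shown to set a pair that was higher in H3.3-KD than in MFN1-KD, *Anp32e* and *Chaf1b*, beside a pair that was lower, *Nasp* and *Nap1l1*. Each line is the 250 bases before the RefSeq transcription start (GRCm38.p6), 5′ to 3′ on the gene's strand: chr3:95929007-95929256 (+) for *Anp32e*, chr16:93883651-93883900 (+) for *Chaf1b*, chr4:116627952-116628201 (-) for *Nasp* and chr10:111472977-111473226 (+) for *Nap1l1*. Capitals mark CCAAT (the letters bound by NF-Y), GGGCGG (bound by SP1) and the E2F letters TTCCCGC with its variants: first TTGGCGC, second TTCGCGC, and last TTGCCGC, each searched on both strands.
Anp32e: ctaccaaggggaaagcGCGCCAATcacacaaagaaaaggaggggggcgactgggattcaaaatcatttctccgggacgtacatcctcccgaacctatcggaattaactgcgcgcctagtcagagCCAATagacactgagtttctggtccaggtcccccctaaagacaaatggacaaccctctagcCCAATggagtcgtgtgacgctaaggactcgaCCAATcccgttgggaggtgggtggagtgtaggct
Chaf1b: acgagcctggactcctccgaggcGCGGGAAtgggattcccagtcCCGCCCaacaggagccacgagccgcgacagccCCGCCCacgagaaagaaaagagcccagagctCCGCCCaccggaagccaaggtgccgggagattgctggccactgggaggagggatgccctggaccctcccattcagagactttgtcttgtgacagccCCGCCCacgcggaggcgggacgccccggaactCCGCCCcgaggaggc
Nasp: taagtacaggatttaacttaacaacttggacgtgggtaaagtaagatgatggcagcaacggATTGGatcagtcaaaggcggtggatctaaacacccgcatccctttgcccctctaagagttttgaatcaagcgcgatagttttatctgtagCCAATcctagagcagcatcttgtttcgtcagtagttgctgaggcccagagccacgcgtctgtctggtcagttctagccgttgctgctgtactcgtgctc
Nap1l1: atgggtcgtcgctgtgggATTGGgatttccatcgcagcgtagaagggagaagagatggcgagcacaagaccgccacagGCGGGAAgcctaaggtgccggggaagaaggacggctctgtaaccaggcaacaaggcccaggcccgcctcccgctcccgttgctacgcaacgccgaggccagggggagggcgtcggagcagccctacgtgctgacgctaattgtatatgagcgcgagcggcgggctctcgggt

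The *Anp32e* window held 4 CCAAT and 1 E2F match, which overlapped the CCAAT farthest from the start. The *Chaf1b* window held 5 GGGCGG matches on the reverse strand and 1 E2F match. The *Nasp* window held 2 CCAAT matches, and the *Nap1l1* window held 1 CCAAT and 1 E2F match. RefSeq windows were found for 9 of the 10 transcripts, with 2 windows for *Ssrp1*. Among the 9, CCAAT was present for 5 (33.8% of 32851 windows of the same length), GGGCGG for 4 (32.7% of windows) and an E2F match for 5 (7.89% of windows), in *Chaf1a*, *Chaf1b*, *Ssrp1*, *Nap1l1* and *Anp32e*. *Asf1b*, like *Anp32e*, held 4 CCAAT, a number reached by 0.84% of all windows and looked up after the matches were seen. The E2F match was present in transcripts that rose and in *Nap1l1*, which fell, in H3.3-KD. The 10 windows held 10 to 28 CpG, above the median of 6 over all windows. The shares of all windows are thus not matched to these windows in CpG, and they count windows where the members are counted as genes. A match is a run of letters and not a measured binding site.

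In control embryos the levels spanned from 4470 FPKM for *Npm1* to 4.587 FPKM for *Chaf1a*. *Npm1* (4470 ± 613, SD, n = 3) lay above 99.7% of the genes tested, *Nap1l1* (526.7 ± 28.8) above 97.3% and *Nasp* (306.1 ± 52.9) above 95.5%. These abundant transcripts encode storage and carrier chaperones. *Anp32e* followed at 53.25 ± 4.2 FPKM, and the libraries of these 4 genes did not overlap each other. *Ssrp1* (25.7 ± 3.46), *Asf1b* (24.68 ± 3.04), *Supt16* (18.45 ± 4.07) and *Chaf1b* (16.25 ± 2.77) formed a middle group in which neighbours in the order overlapped. *Supt6* (10.19 ± 2.62) and *Chaf1a* (4.587 ± 0.815) were the lowest, without overlap. In H3.3-KD the order changed at *Anp32e*, which averaged 289.2 FPKM and stood above *Nasp* at 255.8, although the libraries of the pair overlapped, and at *Chaf1b*, which moved from the eighth to the sixth place without overlap with *Asf1b*, the next below it. In MFN1-KD *Asf1b* dropped from the sixth to the eighth place.

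The 10 transcripts did not move as a block. In MFN1-KD against control, 1 of 10 was called, *Nasp*, which rose, where 3.35% of all genes were called (1.15% higher and 2.20% lower). In H3.3-KD against control, 5 of 10 were called where 31.0% of all genes were: *Anp32e*, *Chaf1b*, *Ssrp1* and *Chaf1a* rose (21.8% of all genes were called higher) and *Nap1l1* fell (9.12% were called lower). In H3.3-KD against MFN1-KD, whose fold changes use no control library although its p-values share the spread estimated over all 9, 8 of 10 were called where 38.6% of all genes were (27.6% higher and 11.0% lower): *Chaf1a*, *Ssrp1*, *Anp32e*, *Chaf1b*, *Supt6* and *Asf1b* were higher and *Nasp* and *Nap1l1* lower in H3.3-KD. The libraries of the 2 groups did not overlap for 7 of 10 transcripts in MFN1-KD against control (28.2% of all genes), with 3 higher (11.4%) and 4 lower (16.8%). The count was 7 in H3.3-KD against control (53.4%), with 6 higher (34.5%) and 1 lower (18.9%), and 9 in the direct comparison (47.9%), with 7 higher (33.1%) and 2 lower (14.8%). At the study's cut-offs, more than 2-fold with an unadjusted p under 0.05, the counts were 2 in MFN1-KD (*Chaf1a* and *Asf1b*, 14.1% of all genes), 4 in H3.3-KD (33.3%) and 8 in the direct comparison (40.1%). The cut-offs were applied here to the limma fit, whereas the study used DESeq2, so these are not the study's own calls. The median log2 fold change of the 10 was -0.13 in MFN1-KD, 0.64 in H3.3-KD and 1.33 in the direct comparison, beside -0.08, 0.26 and 0.39 over all genes.

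**Figure D1:**
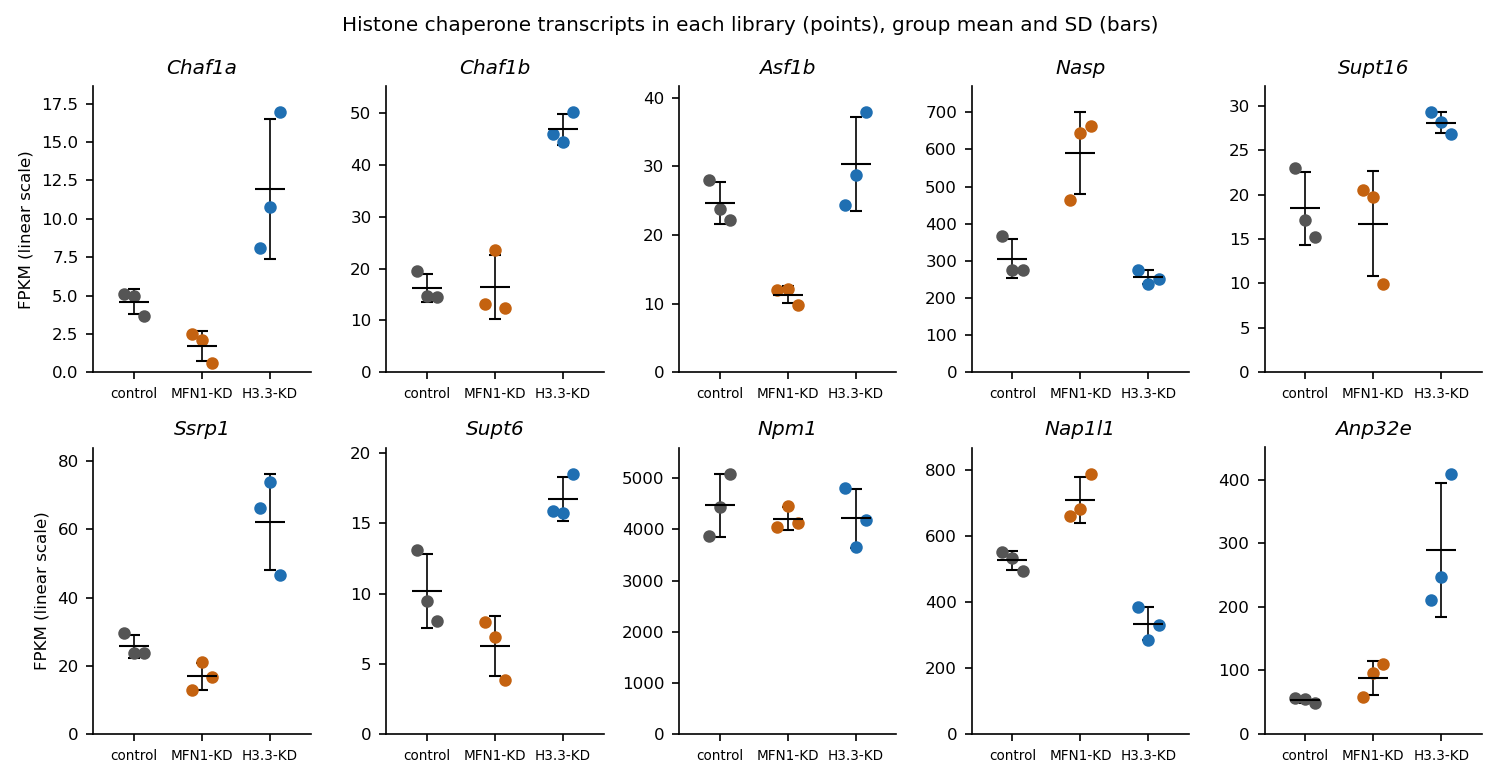
FPKM of the 10 chaperone transcripts (linear vertical axes starting at 0, a scale for each gene) in the 3 libraries of control, MFN1-KD and H3.3-KD, with each point a library, the long bar the group mean and the whiskers the SD. All H3.3-KD libraries lie above all control libraries for *Chaf1a*, *Chaf1b*, *Supt16*, *Ssrp1*, *Supt6* and *Anp32e* and below them for *Nap1l1*, and all MFN1-KD libraries lie below control for *Chaf1a*, *Asf1b*, *Ssrp1* and *Supt6*.

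For CAF-1, *Chaf1a* and *Chaf1b* were both called higher in H3.3-KD, while in MFN1-KD neither passed the adjusted threshold. *Chaf1a* (ENSMUSG00000002835, chr17:56040439-56072289, GRCm38) encodes the large subunit, which contacts PCNA. It was 5.13, 4.98 and 3.65 FPKM in control, 2.49, 2.08 and 0.59 in MFN1-KD and 8.07, 10.75 and 16.95 in H3.3-KD. No library of any group overlapped another group, with MFN1-KD lowest and H3.3-KD highest. The log2 fold change was 1.16 (SE 0.40, 0.90 above the median of all genes, limma adjusted p = 0.0487) in H3.3-KD and -1.11 (SE 0.40, adjusted p = 0.136) in MFN1-KD. Without MFN1-KD replicate 3, the library with the fewest genes above 0, the MFN1-KD value was -0.76. The direct difference, 2.27 (SE 0.40, adjusted p = 0.00159), was the largest of the 10 transcripts in that comparison, and it passed in all 18 alternatives run. The call against control passed in 5 of 18 alternatives (adjusted p 0.0166 to 0.338). *Chaf1a* shares 4648 of its 8854 annotated exonic bases with *Ubxn6* on the opposite strand, and the strand setting of the counting is not given in the sources used here. Reads from the shared bases cannot be told apart, and *Ubxn6* itself averaged 15.5, 14.8 and 20.1 FPKM in control, MFN1-KD and H3.3-KD (log2 fold change 0.35 in H3.3-KD, adjusted p = 0.362).

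*Chaf1b* (ENSMUSG00000022945, chr16:93883901-93906115) encodes the middle CAF-1 subunit, which binds ASF1. It was 19.45, 14.72 and 14.58 FPKM in control, 13.20, 23.58 and 12.49 in MFN1-KD and 45.87, 44.47 and 50.15 in H3.3-KD. The H3.3-KD libraries were tightly grouped and far above the others, whereas MFN1-KD and control overlapped. The rise in H3.3-KD was 1.48 on the log2 scale (SE 0.29, 1.22 above the median of all genes, adjusted p = 0.00393), a 2.88-fold ratio of mean FPKM, and it passed in all 19 alternatives. In MFN1-KD the log2 fold change was -0.03 (95% interval -0.67 to 0.61, adjusted p = 0.973), with a sign that changed under both other scalings. The remaining subunit of CAF-1, *Rbbp4*, was 138.38, 153.35 and 150.01 FPKM in H3.3-KD against 45.85, 29.05 and 24.63 in control (log2 fold change 2.16, SE 0.26, adjusted p = 3.1e-04).

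**Figure D2:**
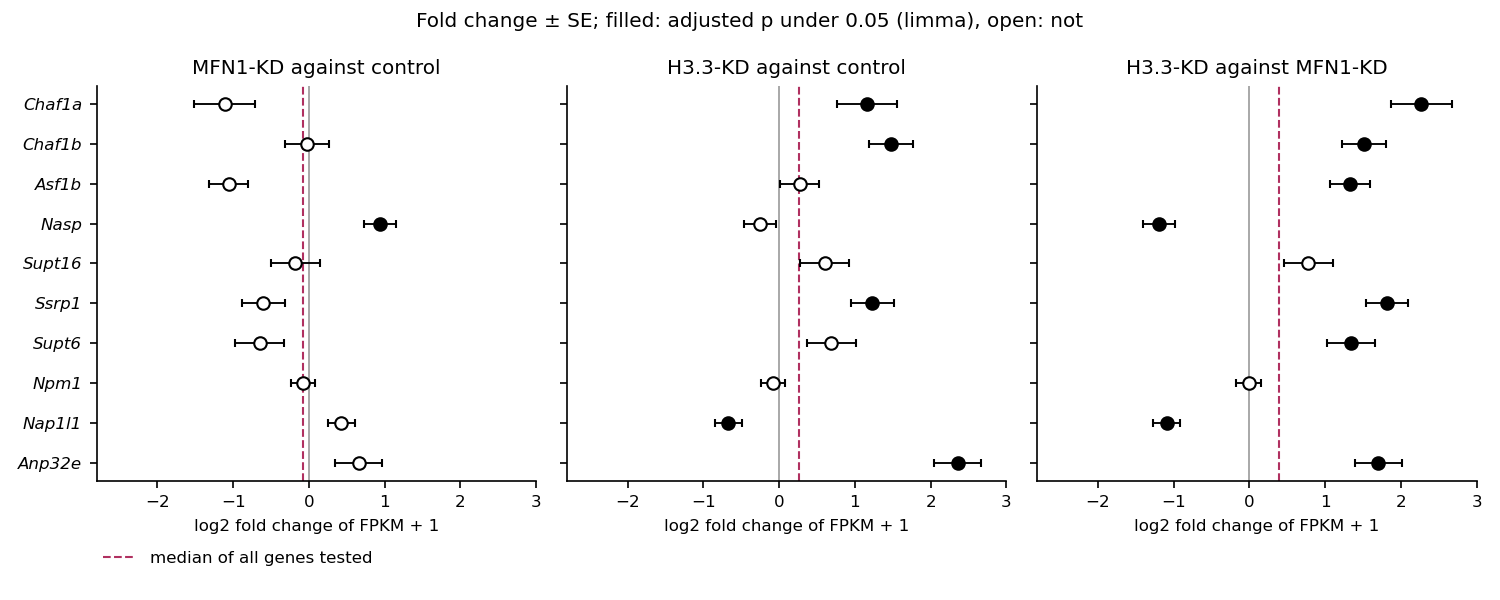
Log2 fold change of FPKM + 1 (horizontal axis) for the 10 transcripts in MFN1-KD against control, H3.3-KD against control and H3.3-KD against MFN1-KD, with whiskers for the SE. Filled points passed an adjusted p under 0.05 (limma), and the dashed lines at -0.08, 0.26 and 0.39 are the medians of all genes tested. The filled points number 1, 5 and 8.

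The ratio of *Chaf1a* to *Chaf1b* within a library shows whether the subunit transcripts kept their proportion. On the log2 scale it was -1.74, -1.39 and -1.74 in control, -2.02, -3.00 and -3.08 in MFN1-KD and -2.37, -1.95 and -1.51 in H3.3-KD. The MFN1-KD libraries all lay below control, by 1.08 on average (exact permutation p = 0.10, two-sided, Benjamini-Hochberg 0.20 over 6 ratio comparisons), and the H3.3-KD libraries overlapped control (difference -0.32, exact permutation p = 0.40). With 3 libraries against 3 the smallest p possible is 0.10, so no ratio comparison could pass.

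Of the H3-H4 carriers, *Nasp* rose in MFN1-KD, and *Asf1b* lay below control there without passing the threshold. *Asf1b* (ENSMUSG00000005470, chr8:83955507-83970197) encodes the ASF1 paralog of dividing cells. It was 28.08, 23.74 and 22.23 FPKM in control, 11.97, 12.11 and 9.84 in MFN1-KD and 24.34, 28.78 and 37.90 in H3.3-KD. Every MFN1-KD library was below every library of the other groups, at 45.8% of the control mean, while H3.3-KD overlapped control. The log2 fold change in MFN1-KD was -1.06 (SE 0.26, 95% interval -1.64 to -0.48), with an adjusted p of 0.0556 (limma), just outside the threshold, and it passed under median-ratio scaling, upper-quartile scaling and a floor of 10 FPKM on the mean (adjusted p from 0.0337 over the 19 alternatives to 0.252). In H3.3-KD it was 0.27 (95% interval -0.31 to 0.85, adjusted p = 0.464), 0.01 above the median of all genes, with a sign that turned under both other scalings. H3.3-KD exceeded MFN1-KD by 1.33 (SE 0.26, adjusted p = 0.00288), a call lost when the GC and length trend was removed (0.36, adjusted p = 0.293). Its paralog *Asf1a*, which serves HIRA as well as CAF-1, had a log2 fold change of 0.14 in MFN1-KD (adjusted p = 0.762) and -0.06 in H3.3-KD (adjusted p = 0.879).

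The log2 ratio of *Asf1b* to *Asf1a* was -1.99, -2.09 and -2.29 in control and -3.07, -3.45 and -3.44 in MFN1-KD. These did not overlap, and the mean difference was -1.20 (exact permutation p = 0.10, the smallest possible, Benjamini-Hochberg 0.20). In H3.3-KD the ratio was -2.48, -1.69 and -1.21, which overlapped control (difference 0.33, exact permutation p = 0.50).

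*Nasp* (ENSMUSG00000028693, chr4:116601052-116627941) encodes the buffer protein for soluble H3-H4. It was 367.20, 275.84 and 275.27 FPKM in control, 463.63, 644.98 and 662.49 in MFN1-KD and 276.40, 238.49 and 252.40 in H3.3-KD. All MFN1-KD libraries stood above all others, and H3.3-KD overlapped control at its upper end. The rise in MFN1-KD was 0.94 on the log2 scale (SE 0.21, a 1.93-fold ratio of means, adjusted p = 0.0444). That call passed in 6 of 19 alternatives (adjusted p 0.0271 to 0.178), and among the fits without 1 library it passed only when MFN1-KD replicate 1 was left out, with the log2 fold change between 0.85 and 1.11 in all of them. In H3.3-KD *Nasp* had a log2 fold change of -0.25 (95% interval -0.71 to 0.22, adjusted p = 0.40), which passed under upper-quartile scaling alone. The direct difference of -1.19 (SE 0.21, adjusted p = 0.00159) passed in all 19 alternatives.

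**Figure D3:**
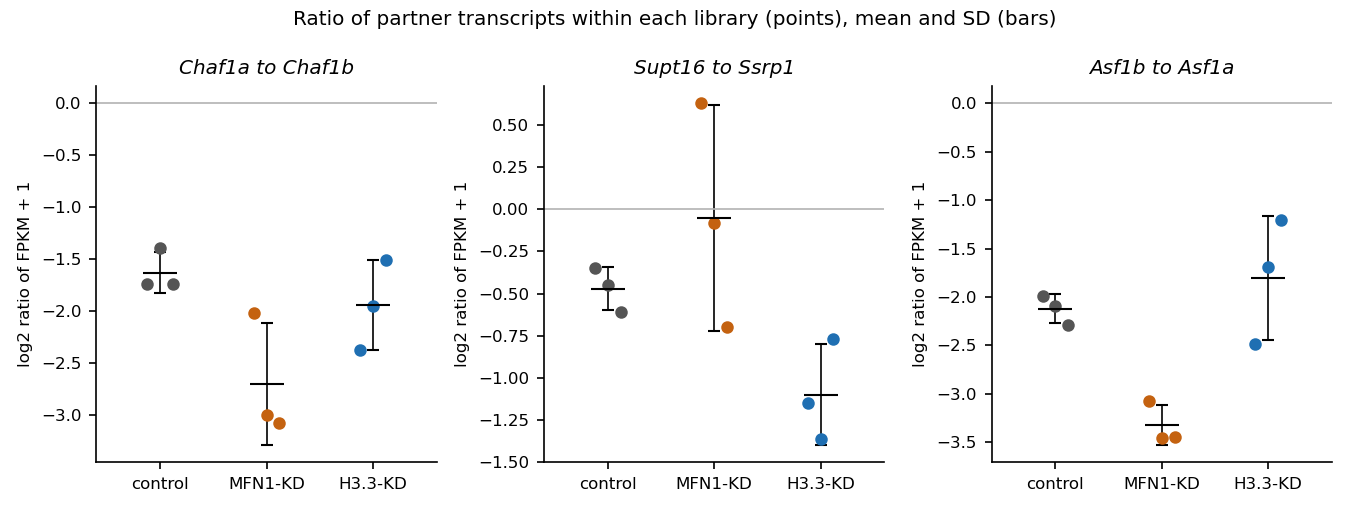
Log2 ratio of FPKM + 1 of *Chaf1a* to *Chaf1b*, *Supt16* to *Ssrp1* and *Asf1b* to *Asf1a* within each library (points), with the group mean (long bar) and SD (whiskers). The MFN1-KD points lie below control for the first and the third pair, and the H3.3-KD points lie below control for the second.

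FACT consists of SPT16 and SSRP1. Both transcripts lay above control without overlap in H3.3-KD, and *Ssrp1* alone of the pair was called. *Ssrp1* (ENSMUSG00000027067, chr2:85037234-85047109), which encodes the HMG-box subunit, was 29.70, 23.76 and 23.65 FPKM in control, 12.86, 20.98 and 16.81 in MFN1-KD and 66.25, 74.04 and 46.63 in H3.3-KD. The 3 groups did not overlap. It rose by 1.23 in H3.3-KD (SE 0.28, 0.97 above the median of all genes, adjusted p = 0.00799), and this call was lost when the GC and length trend was removed (0.53, adjusted p = 0.159). In MFN1-KD it was -0.60 (95% interval -1.21 to 0.02, adjusted p = 0.23), and the direct difference was 1.82 (SE 0.28, adjusted p = 7.5e-04), which passed in all 19 alternatives.

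*Supt16* (ENSMUSG00000035726, chr14:52160414-52197416), which encodes the large FACT subunit, was 23.01, 17.14 and 15.20 FPKM in control, 20.49, 19.78 and 9.93 in MFN1-KD and 29.25, 28.14 and 26.86 in H3.3-KD. H3.3-KD lay above control without overlap, and the low MFN1-KD value belonged to replicate 3. Neither knockdown passed: on the log2 scale the difference from control was 0.60 in H3.3-KD (95% interval -0.10 to 1.3, adjusted p = 0.176) and -0.18 in MFN1-KD (-0.88 to 0.52, adjusted p = 0.78), where it became 0.14 without replicate 3. The H3.3-KD difference of *Supt16* shrank to 0.19 under upper-quartile scaling (limma adjusted p = 0.644). With the GC and length trend removed it was 0.27 (limma adjusted p = 0.502). Of the 5039 exonic bases of *Supt16*, 1057 are shared with *Rpgrip1* on the opposite strand (27.4 to 44.4 FPKM on average in the groups). The log2 ratio of *Supt16* to *Ssrp1* was -0.35, -0.45 and -0.61 in control and -1.15, -1.36 and -0.77 in H3.3-KD, a difference of -0.63 without overlap (exact permutation p = 0.10, Benjamini-Hochberg 0.20). In MFN1-KD it was 0.63, -0.08 and -0.70, a spread that enclosed the control values.

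*Supt6* (ENSMUSG00000002052, chr11:78206746-78245987) encodes SPT6, the H3-H4 chaperone that travels with RNA polymerase II. It was 13.09, 9.46 and 8.01 FPKM in control, 7.97, 6.89 and 3.84 in MFN1-KD and 15.90, 15.72 and 18.55 in H3.3-KD. The groups did not overlap, in the same order as *Chaf1a* and *Ssrp1*, with MFN1-KD below control and H3.3-KD above it. Neither difference from control passed (H3.3-KD 0.69, 95% interval -0.03 to 1.41, adjusted p = 0.136, and MFN1-KD -0.65, -1.37 to 0.07, adjusted p = 0.262), whereas the knockdowns differed by 1.34 (SE 0.32, adjusted p = 0.00875). That call was lost when the GC and length trend was removed (0.72, adjusted p = 0.0673). In the same setting the H3.3-KD difference from control was 0.05 (limma adjusted p = 0.919), so its rise was hardly left. The MFN1-KD difference was -0.67 there (limma adjusted p = 0.18), and it was -0.39 in the main setting without MFN1-KD replicate 3. *Supt6* shares 242 exonic bases with *Sdf2* on the opposite strand (52.5 to 76.0 FPKM on average in the groups).

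*Npm1* (ENSMUSG00000057113, chr11:33152287-33163206) encodes the abundant nucleolar chaperone of ribosome assembly. It was 3869.66, 4445.37 and 5094.38 FPKM in control, 4055.13, 4462.63 and 4118.97 in MFN1-KD and 4807.64, 3655.71 and 4181.05 in H3.3-KD. All groups overlapped. The 95% interval of the log2 fold change was -0.44 to 0.28 in MFN1-KD, -0.45 to 0.28 in H3.3-KD and -0.37 to 0.35 between the knockdowns (adjusted p = 0.818, 0.729 and 0.983), so a 2-fold difference lay outside all of them. Those intervals are from the main fit, and under the other settings the H3.3-KD value reached -0.52.

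Processed copies of *Npm1* were also listed. In the GENCODE M21 transcripts, 8 processed pseudogenes align to *Npm1* over at least 400 bases with at least 90% identity, the most abundant being *Gm9118* (97.3% identical). Summed, they were listed at 371.4, 776.3 and 407.0 FPKM in control, 1066, 1245 and 229.1 in MFN1-KD and 1488, 1428 and 1159 in H3.3-KD. These sums came to 7.99 to 17.5% of *Npm1* in control, 5.56 to 27.9% in MFN1-KD and 27.7 to 39.1% in H3.3-KD, where all libraries were above all control libraries. How reads that fit the gene and a copy were assigned is not given in the sources used here, so the split between them is uncertain. The gene and its copies together were 4241 to 5501 FPKM in control, 4348 to 5708 in MFN1-KD and 5083 to 6295 in H3.3-KD, with overlap between all groups.

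**Figure D4:**
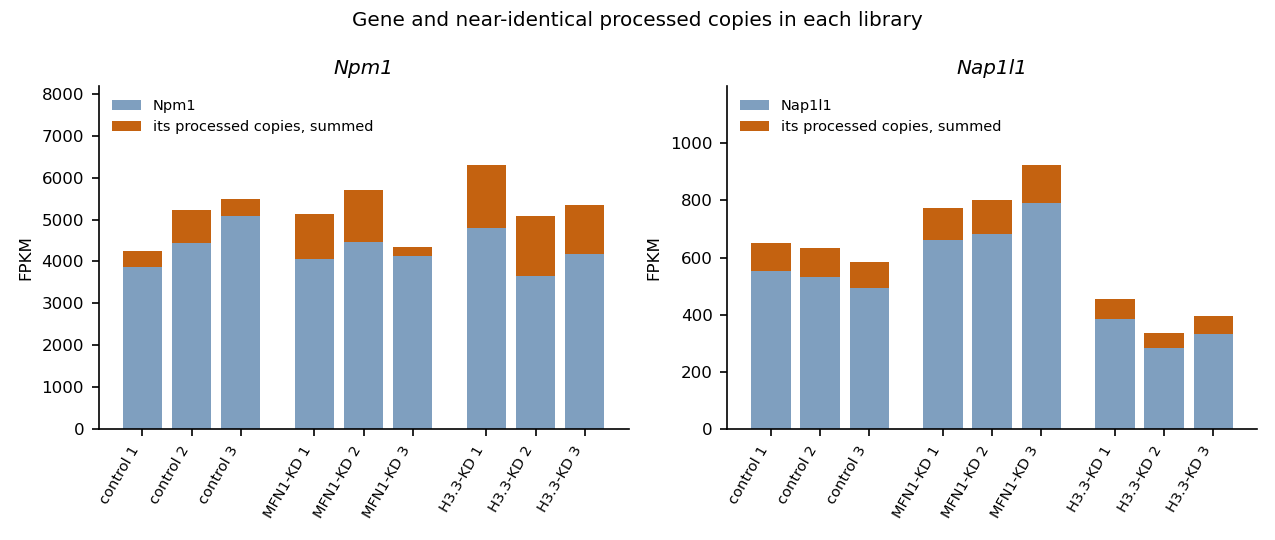
FPKM of *Npm1* and *Nap1l1* (blue) and the summed FPKM of their near-identical processed copies stacked on top (orange) in each of the 9 libraries. The copies of *Npm1* range from 5.56 to 39.1% of the gene and those of *Nap1l1* from 16.8 to 19.9%.

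*Nap1l1* (ENSMUSG00000058799, chr10:111473223-111498150) encodes an H2A-H2B carrier that shuttles into the nucleus. It was 551.85, 532.98 and 495.24 FPKM in control, 659.92, 681.69 and 790.08 in MFN1-KD and 384.84, 285.36 and 331.34 in H3.3-KD. The groups did not overlap, in the reverse of the order of *Chaf1a*, with MFN1-KD highest and H3.3-KD lowest. The fall in H3.3-KD was -0.67 on the log2 scale (SE 0.18, 63.4% of the control mean, 0.93 below the median of all genes, adjusted p = 0.0179). Among the 19 alternatives it failed to pass in 3: without control replicate 2, without replicate 2 of H3.3-KD (adjusted p = 0.0762, the highest), and with the replicate number as a block after removal of the GC and length trend. In MFN1-KD the log2 fold change was 0.43 (95% interval 0.03 to 0.83, adjusted p = 0.185), and the direct difference of -1.09 (SE 0.18, adjusted p = 0.00109) passed in all 19 alternatives. Its copy *Gm4204*, 99.8% identical over 1111 aligned bases, followed the gene: copies came to 16.8 to 19.9% of *Nap1l1* in every library, and reads of the pair cannot be told apart here.

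*Anp32e* (ENSMUSG00000015749, chr3:95929246-95947390) encodes the chaperone that strips H2A.Z from nucleosomes, and it showed the largest change of the 10 against control. It was 55.91, 55.44 and 48.41 FPKM in control, 58.09, 95.99 and 109.33 in MFN1-KD and 210.83, 247.47 and 409.39 in H3.3-KD. Even the lowest H3.3-KD library was well above every other library, and the MFN1-KD libraries lay above control, replicate 1 by a small margin and replicates 2 and 3 by more. The rise in H3.3-KD was 2.36 (SE 0.31, 2.10 above the median of all genes, adjusted p = 4.9e-04), a 5.43-fold ratio of mean FPKM, and it passed in all 19 alternatives (log2 fold change 2.08 to 2.56 without 1 library, 1.93 to 2.38 under the other settings). In MFN1-KD it was 0.66 (95% interval -0.01 to 1.34, adjusted p = 0.224). H3.3-KD exceeded MFN1-KD by 1.70 (SE 0.31, adjusted p = 0.00181).

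Of 12 genes of H2A.Z and its exchange, 5 were called higher and 3 lower in H3.3-KD (21.8% and 9.12% of all genes), with a median log2 fold change of 0.43, beside 0.26 over all genes. Named after their values were seen because *Anp32e* acts on their product, the 2 genes of H2A.Z itself were among the 3 lower ones: *H2afz* fell by 0.59 (SE 0.20, adjusted p = 0.0461) and *H2afv* fell by 1.12 (SE 0.22, adjusted p = 0.00403). The *H2afz* call was just inside the threshold, and no alternatives are given here for these 2 genes. By the naming rule, *Kat5*, the acetyltransferase of the TIP60 complex, rose from 4.353 ± 1.68 to 48.63 ± 3.89 FPKM (log2 fold change 3.25, SE 0.32, adjusted p = 1.4e-04). In MFN1-KD 1 of the 12 was called (3.35% of all genes), with a median of -0.43 beside -0.08. An unadjusted p under 0.05 (limma) was found for 4 of the 12, beside 3025 of all 13011 genes. The called gene was *Vps72*, the H2A.Z-binding subunit, which fell from 16.57 ± 2.12 to 5.98 ± 1.31 FPKM (-1.34, SE 0.26, adjusted p = 0.0359).

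Of 14 replication-coupled partners of these chaperones, 3 were called higher and 1 lower in H3.3-KD, a share near the 31.0% of all genes (median log2 fold change 0.15, beside 0.26). In MFN1-KD 0 were called by limma, where 3.35% of all genes were (median 0.24, beside -0.08). Of the 14, 4 had an unadjusted p under 0.05, beside 3025 of all 13011 genes. In MFN1-KD the partner with the smallest p was *Tlk1*, a kinase of ASF1, at 18.81, 26.78 and 22.40 FPKM against 14.77, 9.64 and 9.34 in control (0.96, SE 0.28, adjusted p = 0.0849). Of 34 replication fork genes, 5 were called higher and 6 lower in H3.3-KD, a share near the 31.0% of all genes, with a median of -0.02 beside 0.26. In MFN1-KD 0 were called higher by limma and 2 lower, beside 3.35% of all genes, and the median was -0.02 beside -0.08. Of the 34, 7 had an unadjusted p under 0.05, beside 3025 of all 13011 genes. *Gins1*, a subunit of the replicative helicase, fell in H3.3-KD from 146.1 ± 17.2 to 55.8 ± 2.64 FPKM (-1.37, SE 0.22, adjusted p = 0.00146), and *Rpa2*, a subunit of the single-strand binding protein, fell in MFN1-KD from 108.2 ± 13 to 47.93 ± 5.66 FPKM (-1.16, SE 0.21, adjusted p = 0.0333).

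Of 11 other histone chaperones tested, 6 were called higher and 1 lower in H3.3-KD (21.8% and 9.12% of all genes), with a median log2 fold change of 1.24 beside 0.26 over all genes. *Npm3*, a nucleoplasmin relative of *Npm1*, had the smallest p, at 67.49, 72.03 and 43.81 FPKM against 2.57, 1.85 and 1.42 (4.38, SE 0.36, adjusted p = 5.6e-05). In MFN1-KD 0 of the 11 were called by limma, and 3 had an unadjusted p under 0.05, beside 3025 of all 13011 genes. *Npm2*, the nucleoplasmin of the oocyte, was 18.94, 17.49 and 7.86 FPKM in MFN1-KD against 25.94, 31.04 and 32.25 in control (-1.05, SE 0.35, adjusted p = 0.113). Of 7 H3.3 chaperone genes, 2 were called higher and 0 lower by limma in H3.3-KD, where 21.8% of all genes were called higher. The median was 0.75 beside 0.26, and 2 of the 7 had an unadjusted p under 0.05, beside 5472 of all 13011 genes. *Hira* was at 47.94 ± 14.3 against 11.42 ± 1.5 FPKM (1.95, SE 0.57, adjusted p = 0.0252), a call that passed in 9 of 19 alternatives. In MFN1-KD 0 of the 7 were called by limma and 1 had an unadjusted p under 0.05, beside 3025 of all 13011 genes. That gene was *Dek*, a chromatin protein that binds H3.3 (199.6 ± 70.2 against 114.6 ± 23.7 FPKM, 0.76, SE 0.30, adjusted p = 0.172).

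Of 16 elongation factors, which work beside FACT and SPT6, 6 were called higher and 4 lower in H3.3-KD (21.8% and 9.12% of all genes), with a median of 0.72 beside 0.26. In MFN1-KD 0 were called higher by limma and 1 lower, beside 3.35% of all genes, and the median was 0.36 beside -0.08. Of the 16, 8 had an unadjusted p under 0.05 (4 higher and 4 lower), beside 3025 of all 13011 genes. *Supt5*, the large subunit of DSIF, rose in H3.3-KD from 18.11 ± 5.95 to 107.4 ± 21.5 FPKM (2.53, SE 0.29, adjusted p = 2.8e-04). *Elof1*, an elongation factor of RNA polymerase II, fell in MFN1-KD from 731 ± 56.4 to 247.9 ± 129 FPKM (-1.74, SE 0.40, adjusted p = 0.0472).

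GC content moved with the fold changes. The longest transcripts of *Nasp*, *Nap1l1*, *Npm1*, *Anp32e* and *Supt16* have 38.9 to 45.7% GC, below the median of 48.9% over genes, and those of the other 5 have 49.3 to 52.7%. The 4 transcripts that lay below control in MFN1-KD without overlap (*Chaf1a*, *Asf1b*, *Ssrp1* and *Supt6*) have the 4 highest GC contents. Across the 10 transcripts, Pearson's r of GC content with the log2 fold change was -0.88 in MFN1-KD, 0.49 in H3.3-KD and 0.88 in the direct comparison, and across 12803 genes it was -0.22, 0.32 and 0.43. Genes of 1 library share its depth and base composition and are not replicates, so these values carry no p. After removal of the trend of each library with GC and length, *Anp32e* (2.02, SE 0.31, adjusted p = 0.00202), *Chaf1b* (0.85, SE 0.23, adjusted p = 0.0246) and *Nap1l1* (-0.67, SE 0.20, adjusted p = 0.0341) still passed in H3.3-KD, while *Chaf1a* (0.54, adjusted p = 0.277) and *Ssrp1* did not. In MFN1-KD *Nasp* did not pass (0.68, adjusted p = 0.0866) and *Asf1b* was at -0.58 (adjusted p = 0.203). In the direct comparison 6 of the 8 calls were kept, without *Asf1b* and *Supt6*.

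**Figure D5:**
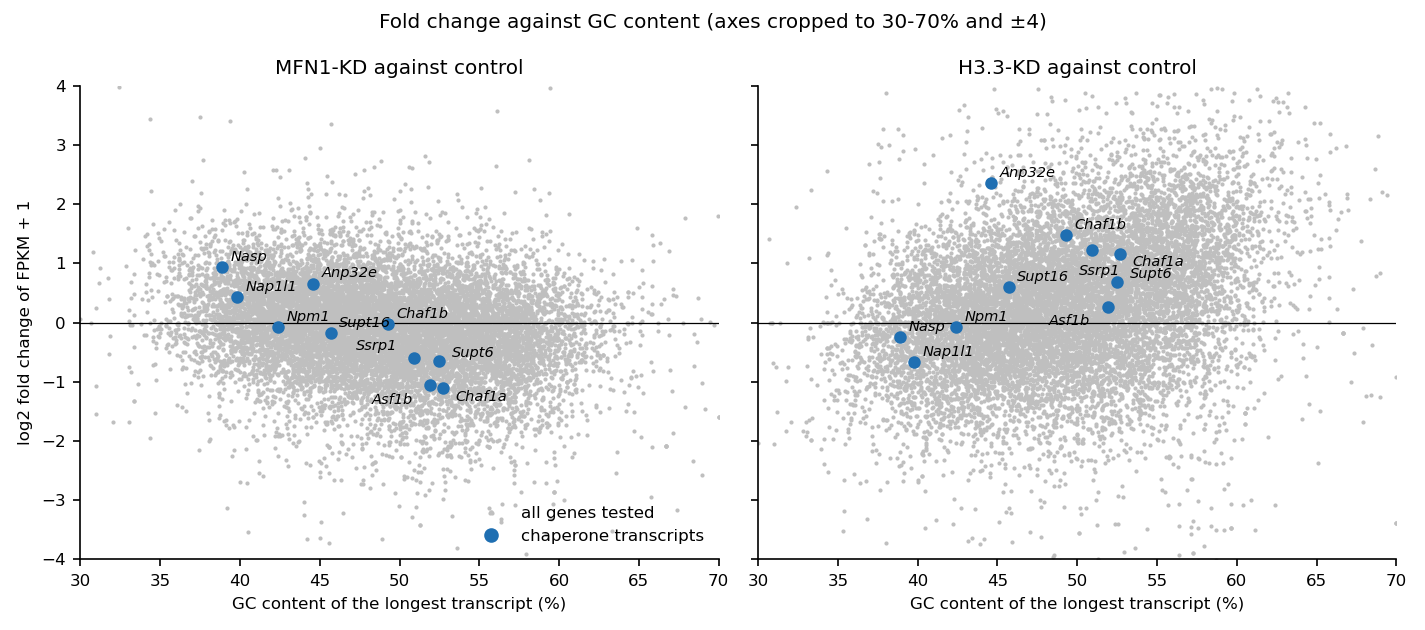
Log2 fold change of FPKM + 1 against the GC content of the longest transcript in MFN1-KD (left) and H3.3-KD (right) against control, for the 10 chaperone transcripts (blue, named) and all genes tested (grey), with the axes cropped. Among the 10, the 5 with 49.3% GC or more lie below 0 on the left and above 0 on the right, although *Chaf1b* on the left and *Asf1b* on the right take the other sign under the other scalings.

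Over the 9 libraries, *Chaf1a* and *Supt6* had the most similar profiles among the 10 (Pearson's r of log2(FPKM + 1) 0.97), and *Chaf1a* and *Nap1l1* and *Asf1b* and *Nasp* ran in opposite directions (r of -0.93 and -0.90). *Npm1* was close to none of them (r between -0.24 and 0.14). Outside the 10, among 5924 genes averaging 10 FPKM or more, the nearest profile was *Spsb3* for *Chaf1a* (r = 0.986), *Gm42418* (annotated as a lincRNA) for *Chaf1b* (0.990), *Wdr53* for *Asf1b* (0.982), *Ezh2* for *Nasp* (0.976), *Spint1* for *Supt16* (0.983), *Taf6* for *Ssrp1* (0.986), *Traip* for *Supt6* (0.989), *Srsf3* for *Npm1* (0.781), *Gm4204* for *Nap1l1* (0.994) and the processed pseudogene *Gm1995* for *Anp32e* (0.992). Between 105 and 652 genes had an r of at least 0.9 with each transcript other than *Npm1*, for which there were 0, so a near profile was common. The libraries share 3 groups, and r describes these 9 libraries only. *Nasp-ps1*, a pseudogene of *Nasp*, was listed at 0 in all libraries.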

How the data were processed

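RNA was measured in 9 Smart-Seq2 libraries, 3 per group, with groups taken from the sample titles. Per the submitters' processing notes, cutadapt 1.16 and STAR were used with build mm10, and the authors deposited FPKM per gene symbol, rounded to 2 decimals. The counting program, annotation and strand setting are not given in the sources used here. Counts were not used, so depth is unknown and limma-trend, planned for FPKM, replaced the test planned for counts.

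Genes averaging 1 FPKM or more were fitted as log2(FPKM + 1) over all 9 libraries with no covariate (limma 3.58.1, trend and robust options, R 4.3.3). The fit was also run on simulated data, where many of the changes put in were not called. Fewer were recovered than first required, and the requirement was then lowered. A transcript that was not called is therefore not shown to be unchanged. Partner ratios were compared by two-sided exact permutation tests. Positions, GC content, lengths and copies (blastn 2.17.0) came from GENCODE M21 (GRCm38, that is, mm10), and promoters from RefSeq. The 10 members and all lists were chosen with earlier results of these data known. Named are the members, the siRNA targets, the list gene with the smallest p in each knockdown and the nearest profile of each member. *Asf1a* belongs to a planned ratio, and *H2afz*, *H2afv*, overlapping genes and single markers were added after their values were seen. Alternatives were other scalings, pseudocount, filters, fewer libraries, a replicate block and removal of GC and length trends.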

Additional observations from a re-analysis of the deposited data

How the results depend on the processing

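In MFN1-KD against control the number of transcripts called was 2 under median-ratio scaling, upper-quartile scaling and a mean of at least 10 FPKM (*Asf1b* with *Nasp*), and 0 by limma with no filter, with only the 6 libraries compared, with the replicate block, with the GC and length trend removed and with both (4 or 5 of the 10 had an unadjusted p under 0.05 in these). Calls over all genes moved too: 436 of 13011 in the main fit, 502 and 543 under those scalings, 657 of 5933 at 10 FPKM. They were 2 of 32672 with no filter, 0 with 6 libraries and 31 with the block. With the trend removed they were 301 of 12803, and 0 with both. The all-gene numbers with an unadjusted p under 0.05 were, in that order, 3895, 2724, 2923, 2737 and 2638. The number of chaperone transcripts called ranged from 0 to 1 when 1 library was left out, beside 0 to 665 of all 13011 genes. In H3.3-KD against control the number was 3 with the GC and length trend removed and 2 with that and the replicate block. It was 3 to 5 without 1 library, with 3 when control replicate 2 or H3.3-KD replicate 2 was left out. All genes called were 4028 of 13011 in the main fit and 2432 to 5070 without 1 library. With the trend removed they were 3047 of 12803, and 2847 with the block as well. In H3.3-KD against MFN1-KD the chaperone count was 5 with the block and the GC and length trend removed (3425 of all 12803 genes). It was 8 in all fits without 1 library (3870 to 5121 of all 13011 genes, beside 5028 in the main fit). *Elof1*, *Vps72*, *Rpa2* and *Mfn1* passed in MFN1-KD in 6, 8, 9 and 8 of 19 alternatives. The cause of these shifts was not tested.

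Signs turned for 4 transcripts, none of them called in that comparison. *Chaf1b* in MFN1-KD was 0.03 and 0.02 under median-ratio and upper-quartile scaling, 0.11 with the GC and length trend removed, with or without the block, and between -0.31 and 0.13 without 1 library. With the GC and length trend removed, with or without the block, *Npm1* was 0.17 in MFN1-KD and 0.09 for H3.3-KD. Without 1 library it ranged from -0.18 to 0.02 in MFN1-KD, from -0.18 to 0.01 for H3.3-KD and from -0.11 to 0.09 in the direct comparison. Under the other settings *Npm1* ranged more widely, from -0.52 to 0.09 for H3.3-KD and from -0.50 to -0.01 in the direct comparison. The lowest limma adjusted p over the 19 alternatives was 0.0709 for H3.3-KD and 0.0697 in the direct comparison. *Asf1b* in H3.3-KD was -0.05 and -0.14 under the 2 scalings and -0.22 with the trend removed. *Supt16* in MFN1-KD ranged from -0.35 to 0.14, the latter without MFN1-KD replicate 3. *Chaf1a* could not be tested at a mean of at least 10 FPKM.

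The 6 partner ratios kept their sign under a pseudocount of 0.1, and the replicate block left them at the same means (exact sign-flip p from 0.25, the smallest possible). Whether the replicate numbers pair the libraries is not settled by these data. Same-numbered libraries of different groups had correlations of their deviations between -0.0526 and 0.158. Libraries of different numbers and groups had correlations between -0.116 and 0.072. Besides the counts above, the block also took *Chaf1a* in H3.3-KD out of the calls. Depth is unknown, which limits low values such as 0.59 FPKM for *Chaf1a*.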
